A study of Mus musculus with 41 samples.

Results

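A set of 9 red cell genes was followed through 41 mouse samples of a study of RHOX10, an X-linked homeobox transcription factor of male germ cells. They are the adult globin genes Hba-a1, Hba-a2, Hbb-bs and Hbb-bt, the anion exchanger gene Slc4a1, the erythroid haem synthesis gene Alas2, the erythroid regulator gene Klf1, and the membrane skeleton genes Epb42 and Ank1. They were listed by name and found in the count tables by gene identifier, 9 of 55536 genes in each table. They were chosen by their RNA-seq difference between the genotypes, and Ank1 also by its averaged iSLAM-seq difference, both seen earlier in these data, so those differences are given as descriptions with no test.

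RNA-seq came from sorted germ cells of C57BL/6 mice carrying an OCT4-eGFP reporter, 4 libraries with the genotype label wild-type and 4 with the label Rhox10-null, each made from the pooled testes of 3 animals. The age of these animals is not given in the labels. iSLAM-seq is meant to mark RNA made after a factor is switched on. Whether its counts are of all reads or of the marked (converted) reads is not given in the sources used here. This assay was run on cultured germline stem (GS) cells of neonatal C57BL/6 testes. All of these cells carried an shRNA lentivirus against endogenous Rhox10 and either a Rhox10-ERT2-mCherry fusion, activated by 4-hydroxytamoxifen, or the empty ERT2-mCherry vector. They gave 24 libraries, 2 per vector at each of 0, 0.5, 1, 2, 4 and 8 h. CUT&Tag, which tags DNA where an antibody sits, was made from GS cells with the same knock-down and HA-tagged Rhox10, with 3 libraries each for the HA antibody (RHOX10), the HA antibody on empty-vector cells (Ctrl) and IgG. The shRNA was thus present in all GS cells of both assays, controls included.

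Haemoglobin is built from alpha and beta globin chains, each holding a haem, and the adult alpha and beta chains of the mouse come from gene pairs on different chromosomes. ALAS2 catalyses the first step of haem synthesis in erythroid cells, and KLF1 and GATA1 switch on globin, haem and membrane genes as erythroblasts mature. In the red cell membrane, band 3 (Slc4a1) exchanges chloride for bicarbonate and is tied to the spectrin skeleton through ankyrin (Ank1) and protein 4.2 (Epb42). The testis is not a site of red cell formation, but blood vessels run between its tubules, and reticulocytes in blood still carry globin RNA.

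The upstream sequences are shown because globin and haem genes are textbook targets of GATA1 and KLF1, which bind short DNA words, and because their copies bear on how reads can be assigned. Each line gives the 250 bases before the RefSeq start (RefSeq, GRCm38.p6), 5′ to 3′ on the strand of the gene. Capitals mark GATA words (AGATAA and TGATAA, with AGATAG and also TGATAG) and the KLF word CCNCNCCC, on either strand, and matches that overlap run together. The windows lie at chr11:32283422-32283671 (plus strand) for Hba-a1, chr7:103827929-103828178 (minus) for Hbb-bs, chr7:103813924-103814173 (minus) for Hbb-bt, chrX:150547167-150547416 (plus) for Alas2, chr8:84901732-84901981 (plus) for Klf1 and chr2:121036878-121037127 (minus) for Epb42.
Hba-a1: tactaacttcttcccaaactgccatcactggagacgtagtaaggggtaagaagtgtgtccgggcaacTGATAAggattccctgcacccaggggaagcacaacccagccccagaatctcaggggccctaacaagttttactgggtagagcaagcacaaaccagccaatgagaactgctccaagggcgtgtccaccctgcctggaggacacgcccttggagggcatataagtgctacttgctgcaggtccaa
Hbb-bs: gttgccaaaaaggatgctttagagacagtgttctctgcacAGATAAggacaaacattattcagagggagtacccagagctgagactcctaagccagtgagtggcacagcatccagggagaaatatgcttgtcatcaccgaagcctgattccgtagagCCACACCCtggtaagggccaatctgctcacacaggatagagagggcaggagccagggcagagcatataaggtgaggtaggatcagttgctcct
Hbb-bt: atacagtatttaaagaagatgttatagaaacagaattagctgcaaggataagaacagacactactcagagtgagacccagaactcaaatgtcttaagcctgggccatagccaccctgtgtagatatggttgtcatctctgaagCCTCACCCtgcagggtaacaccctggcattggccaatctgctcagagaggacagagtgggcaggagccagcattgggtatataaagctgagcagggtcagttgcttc
Alas2: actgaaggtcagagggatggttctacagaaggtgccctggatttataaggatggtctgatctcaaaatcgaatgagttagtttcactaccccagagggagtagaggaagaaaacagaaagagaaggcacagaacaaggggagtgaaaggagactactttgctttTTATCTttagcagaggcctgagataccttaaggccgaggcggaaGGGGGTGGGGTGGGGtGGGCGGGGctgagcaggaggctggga
Klf1: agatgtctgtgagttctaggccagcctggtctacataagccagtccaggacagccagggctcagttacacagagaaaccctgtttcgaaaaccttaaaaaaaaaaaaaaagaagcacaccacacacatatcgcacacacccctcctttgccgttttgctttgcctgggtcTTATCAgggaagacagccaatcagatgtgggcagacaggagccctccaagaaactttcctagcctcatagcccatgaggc
Epb42: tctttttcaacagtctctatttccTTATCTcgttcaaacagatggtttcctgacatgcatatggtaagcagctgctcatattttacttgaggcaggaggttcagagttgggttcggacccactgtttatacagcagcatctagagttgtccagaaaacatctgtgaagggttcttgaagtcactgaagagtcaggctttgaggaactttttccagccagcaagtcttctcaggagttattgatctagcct

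Of the 7 members with a window in the table used, Hba-a2 included, 6 held a GATA word and 3 held the KLF word. Among 32851 mouse promoter windows of the same length, 26.5% held a GATA word and 45.9% the KLF word. Hbb-bt was the window without a GATA word, and Hbb-bs and Alas2 held both kinds. The Hba-a2 window (chr11:32296242-32296491, plus strand) shared a run of 244 identical bases with that of Hba-a1, so the pair is in effect one sequence. The 4 globin windows held TATAA between 23 and 30 bases before the start, a word found in 22.8% of all windows. The homeobox word TAATTA was in 0 of the 7 windows and in 4.84% of all windows. A match here is a stretch of letters, and no protein was measured on these windows other than by the CUT&Tag peaks described at the end.

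Per exon length, the adult globin genes were the most abundant members in the libraries labelled null and were close to absent from wild type. The alpha globin gene Hba-a1 (chr11:32283511-32284465, plus strand, GRCm38) had 180, 146, 191 and 149 reads in the 4 libraries labelled null and 7, 8, 4 and 3 in wild type. Its neighbour Hba-a2 (chr11:32296489-32297298) had 166, 139, 179 and 140 reads in the libraries labelled null and 10, 7, 2 and 2 in wild type. For both genes, every library labelled null lay far above every wild-type library. In CPM, which are reads scaled to a common library size, Hba-a1 was 20.5 ± 1.66 in the libraries labelled null and 0.841 ± 0.369 in wild type (SD, n = 4 each), a 24.7-fold difference with a 95% counting interval of 16.1 to 39.6. Hba-a2 was 19.2 ± 1.55 and 0.797 ± 0.595 CPM, 24.2-fold (15.7 to 39.4). These intervals are exact binomial intervals of the summed reads and cover counting error only.

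The beta globin pair differed by more, because wild type held almost no reads. Hbb-bs (chr7:103826534-103828096, minus strand) had 135, 124, 123 and 120 reads in the libraries labelled null and 1, 2, 2 and 1 in wild type. Hbb-bt (chr7:103812524-103813996, minus strand) had 95, 68, 78 and 80 reads against 2, 1, 2 and 0. The groups did not overlap for either gene, and the 4 libraries labelled null were close to one another. Hbb-bs was 68.1-fold higher (31.1 to 187), at 15.5 ± 0.887 against 0.233 ± 0.105 CPM, and Hbb-bt was 52.3-fold higher (22.2 to 162), at 9.88 ± 0.827 against 0.198 ± 0.155 CPM. With so few wild-type reads, the intervals of the alpha and beta folds overlap.

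The copies within each pair share sequence and may share reads. The Hba-a2 transcript (554 bases) is 96.93% identical to the Hba-a1 transcript (699 bases), with an identical run of 415 bases. The Hbb-bs and Hbb-bt transcripts (628 and 703 bases) are 92.58% identical, with a run of 430 bases. How reads that fit both copies were counted is not given in the sources used here, so the level of each pair is better known than that of each copy. In the libraries labelled null, Hba-a1 had 1.05 to 1.08 reads for each read of Hba-a2, and Hbb-bs 1.42 to 1.82 for each read of Hbb-bt. Per exon length, the alpha pair stood at 1.58 ± 0.185 times the beta pair (SD, n = 4, range 1.46 to 1.86).

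The embryonic globins, which red cells of the yolk sac use, did not accompany the adult ones. Hba-x and Hbb-y had 0 reads in all 8 RNA-seq libraries, and Hbb-bh1 had 1 read in 1 library labelled null. With 0 reads, up to 3 reads per library cannot be told from none. The globin chaperone gene Ahsp was not found by symbol in the annotation used and was not analysed here.

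**Figure D1:**
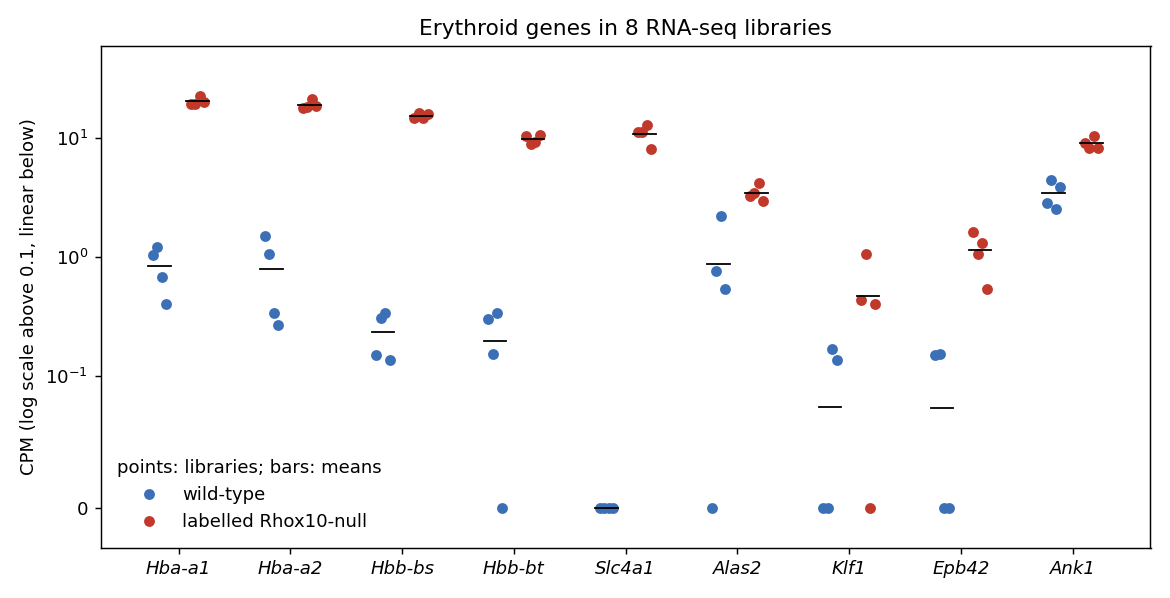
CPM of the 9 genes in each RNA-seq library (vertical axis, CPM, log scale above 0.1 and linear below). Blue points are the 4 wild-type libraries, red points the 4 labelled Rhox10-null, and bars are group means. Red and blue points overlap for Klf1 only, and Slc4a1 is at 0 in all 4 wild-type libraries.

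Slc4a1 (chr11:102348824-102366203, minus strand), the gene of the band 3 anion exchanger, was detected in every library labelled null and in no wild-type library. It had 103, 86, 107 and 60 reads in the libraries labelled null and 0 in each of the 4 wild-type libraries. All 4 libraries labelled null were thus above the limit of 3 reads that a count of 0 allows. Against that limit, its 10.9 ± 2.01 CPM (SD, n = 4) was at least 23.8-fold higher. Null replicate 4 was the lowest, with 12.3 reads of Slc4a1 per 100 globin reads, where the highest of the 4 libraries had 18.7.

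The other membrane members were of lower level. Ank1 (chr8:22974844-23150497, plus strand), the gene of erythroid ankyrin, had 84, 63, 88 and 62 reads in the libraries labelled null and 19, 29, 15 and 29 in wild type. In CPM it had the highest wild-type level of the members, and the groups still did not overlap. Its mean was 9.11 ± 1.05 against 3.45 ± 0.895 CPM, 2.63-fold (2.07 to 3.36). Per kb of exon its wild-type level was 0.255 CPM, below Hba-a2 (1.19), Hba-a1 (1.04), Alas2 (0.366) and Hbb-bs (0.303). Epb42 (chr2:121017891-121037072, minus strand), the gene of protein 4.2, had 15, 8, 11 and 4 reads against 1, 1, 0 and 0. Here too the groups did not overlap, with 1.14 ± 0.465 and 0.0760 ± 0.0877 CPM, 15.5-fold with a wide counting interval of 4.00 to 132.

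Alas2 (chrX:150547375-150570638, plus strand) had 30, 26, 35 and 22 reads in the libraries labelled null and 0, 5, 13 and 4 in wild type. The groups did not overlap, but wild-type replicate 3 was far above the other wild-type libraries. The means were 3.47 ± 0.529 and 0.878 ± 0.940 CPM, 4.18-fold (2.63 to 6.94). The fitted log2 fold change was 2.04 with all libraries and 2.93 without wild-type replicate 3. Alas1, the form of the same enzyme that most tissues use, was at 9.34 ± 1.05 CPM in the libraries labelled null and 8.37 ± 1.52 in wild type and did not pass the test (log2 fold change 0.17, SE 0.130, edgeR quasi-likelihood test, adjusted p = 0.311).

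Klf1 (chr8:84901928-84905291, plus strand) was the scarcest member by reads. It had 4, 8, 0 and 3 reads in the libraries labelled null and 0, 0, 1 and 1 in wild type. Null replicate 3 had none, so this is the member whose groups overlapped. Its means of 0.475 ± 0.437 and 0.0763 ± 0.0892 CPM give a 6.11-fold ratio with a counting interval of 1.42 to 55.0.

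Of the 9 members, 7 passed the filter on low counts and entered the fit of 13538 genes, and Klf1 and Epb42 did not. All of the 7 except Ank1 passed it through the libraries labelled null, where they are high. Reads of every library labelled null exceeded those of every wild-type library for 8 of 9 members, where 15.8% of the tested genes showed this pattern. The 4 globins and Slc4a1 were among the 13 tested genes (0.0960%) with a log2 fold change above 3. By fitted log2 fold change, Slc4a1 ranked 1, Hbb-bs 3, Hbb-bt 4, Hba-a1 8, Hba-a2 9, Alas2 26 and Ank1 86. The fitted value of Slc4a1 (9.34) depends on the prior count, since wild type had 0 reads. Against the limit of 3 reads its log2 fold change is at least 4.58, below the fitted 5.99 of Hbb-bs and 5.59 of Hbb-bt. Since the genes were listed for this difference, these ranks and counts describe the choice.

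Per kb of exon, the order of levels in the libraries labelled null ran from globins to regulator and skeleton. Hba-a2 was at 28.8 ± 2.33, Hba-a1 at 25.2 ± 2.04, Hbb-bs at 20.2 ± 1.15 and Hbb-bt at 14.1 ± 1.18 CPM per kb. Slc4a1 followed at 2.23 ± 0.412, Alas2 at 1.44 ± 0.220, Ank1 at 0.673 ± 0.0778, Klf1 at 0.310 ± 0.286 and Epb42 at 0.210 ± 0.0859 CPM per kb (all SD, n = 4). The libraries of neighbours overlapped for the 2 alpha globins, for Slc4a1 with Alas2, for Ank1 with Klf1 and for Klf1 with Epb42. The 4 globins took 70.3% to 76.4% of all member reads in these libraries.

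**Figure D2:**
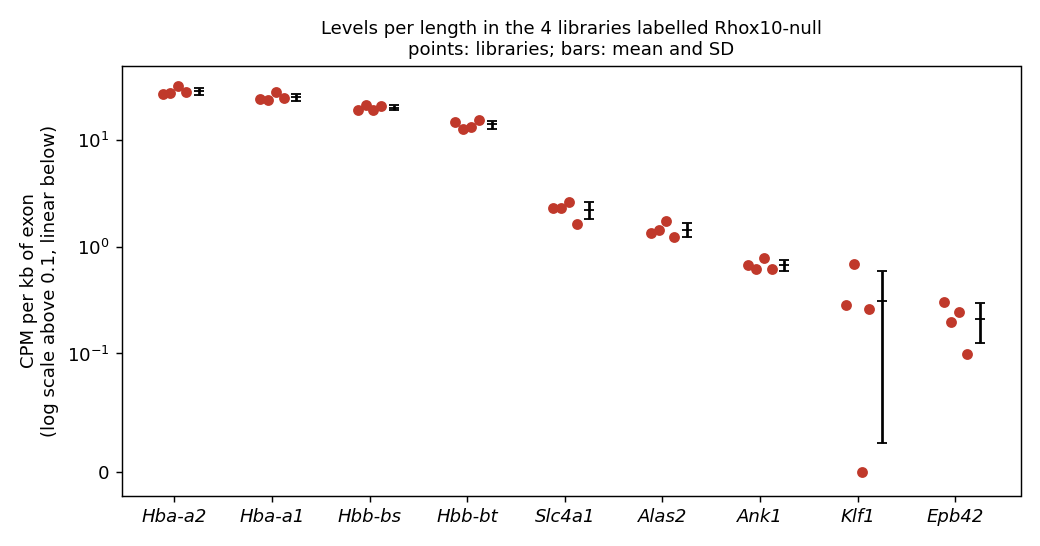
CPM per kb of exon (vertical axis, log scale above 0.1 and linear below) in the 4 libraries labelled Rhox10-null. Points are libraries and bars are the mean and SD. The means of the 4 globins lie between 14.1 and 28.8, above those of the other 5 genes, which run from 0.210 to 2.23.

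The 4 libraries labelled null carried these genes at a similar total level. Their summed CPM was 86.1 to 97.6 (90.2 ± 5.04, SD, n = 4), against 5.43 to 8.13 (6.55 ± 1.16) in wild type, a ratio of 13.8. For the globins, the coefficient of variation over these libraries ran from 5.71% to 8.37%, where counting alone would give 7.75% to 11.2%. Slc4a1 varied by 18.5%, where counting alone gives 10.6%, with null replicate 4 the lowest.

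The genes most like the members were found by the root mean square difference between their profile and the median profile of the members. Profiles were centred log2(CPM + 0.5) over the 8 libraries, and 0 would be the same profile. The closest was Kel, a red cell surface glycoprotein gene (0.558), then Ermap, a red cell membrane protein gene (0.581), and Gm10800 (0.587). Pkhd1l1 (0.663), Ptprz1 (0.770), Ache (0.936), Cdhr1 (0.936), Pappa2 (0.954), Car2 (1.00) and Duxf3 (1.01) followed. Of these 10, Kel, Ermap and Car2 belong to the lists of red cell genes used below. On the same measure the members ran from 0.185 for Hbb-bt to 1.60 for Klf1. The 8 libraries form 2 groups, so any gene with a large difference between the genotypes resembles this profile.

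Other genes of red cells were then taken from 5 lists by function, 67 genes in all, of which 41 were tested. By edgeR's quasi-likelihood test with Benjamini-Hochberg adjustment, 23 were higher in the libraries labelled null, 4 were lower and 14 were not called, and DESeq2 called 18 higher and 2 lower. Among all 13538 tested genes, 37.5% were called, 18.6% higher and 18.9% lower. The median log2 fold change was 0.31 over the 41 genes and 0.003 over all tested genes. Of the 23 higher genes, 9 (Kel, Ermap, Aqp1, Dmtn, Add2, Tfr2, Blvrb, Bcl11a and Car2) passed the filter only through the libraries labelled null, and the lower gene Gata2 only through wild type, so these 10 entered the fit because they differ and their calls support nothing. These counts also depend on the scaling. With scaling to Sertoli markers 23 were higher and 3 lower. With the libraries scaled to a list of peritubular and stromal markers, 9 were higher and 18 lower, and with scaling to germ cell markers 40 were higher and 0 lower.

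The membrane and skeleton list had 10 of 13 tested genes higher and 0 lower by edgeR, with a median log2 fold change of 0.61. Under the stromal scaling 5 were higher and 3 lower, and DESeq2 called 8 higher and 0 lower. Of the 10, 5 (Kel, Ermap, Aqp1, Dmtn and Add2) passed the filter only through the libraries labelled null, so their calls support nothing. All 13 had a log2 fold change above 0, and this count and the median include those 5. Kel had 21, 17, 25 and 32 reads in the libraries labelled null and 0 in all wild-type libraries, at least 6.49-fold higher. Ermap was at 3.01 ± 0.569 CPM against 0.0807 ± 0.0935 in wild type, a log2 fold change of 5.03. The water channel gene Aqp1 (2.05), the dematin gene Dmtn (1.48) and the beta adducin gene Add2 (1.45) were higher by these log2 fold changes. The beta spectrin gene Sptb, part of the rod of the skeleton, was at 29.3 ± 2.12 against 19.7 ± 1.93 CPM, a log2 fold change of 0.56 that is smaller in size than the shift of all genes under the stromal scaling (-0.59).

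For haem synthesis and iron supply, 8 of 17 tested genes were higher, 1 was lower and 8 were not called (median log2 fold change 0.29). Under the stromal scaling 3 were higher and 7 lower. Of the 8 higher, 2 (Tfr2 and Blvrb) passed the filter only through the libraries labelled null, so their calls support nothing. Slc25a37, the mitochondrial iron importer mitoferrin 1, rose by a log2 fold change of 1.16 (edgeR adjusted p = 2.44e-09) and Ppox, protoporphyrinogen oxidase, by 1.06. Tfr2, transferrin receptor 2, was higher by 1.50, or 2.17 without wild-type replicate 2. Blvrb, biliverdin reductase B, was higher by 0.86, and was not called under the stromal scaling (0.27). The transferrin receptor gene Tfrc, which brings in the iron, was 29.5 ± 2.24 against 24.1 ± 3.60 CPM (log2 fold change 0.29, edgeR adjusted p = 0.00406), but -0.30 under the stromal scaling. Alad, the enzyme after ALAS in the pathway, was lower (-0.27), but higher by 0.66 under scaling to germ cell markers and by 0.0750 with library totals, and it lost its call with DESeq2 (adjusted p = 0.0677).

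Regulators of erythroid genes moved in both directions. Of 6 tested, 3 were higher, 2 lower and 1 was not called (median log2 fold change 0.16). Under the stromal scaling 0 were higher and 4 lower. Bcl11a passed the filter only through the libraries labelled null and Gata2 only through wild type, so their calls support nothing. Gata2, a factor of blood stem and progenitor cells, was lower at 1.55 ± 0.335 against 3.36 ± 0.368 CPM (log2 fold change -1.09). Under germ cell scaling Gata2 was at -0.17 and not called. Bcl11a, a globin repressor, was higher by 1.12, or 0.53 and not called under the stromal scaling. Sox6 (0.42) and Klf3 (0.31) were also higher, with the opposite sign under the stromal scaling, and Ldb1 was lower (-0.21), with the opposite sign under germ cell scaling and with library totals. Klf3 lost its call with DESeq2 and without null replicate 2 or wild-type replicate 1, 3 or 4 (edgeR adjusted p from 0.0542 to 0.123 without each of them). Ldb1 lost it with DESeq2 and without null replicate 1 or 4 (0.0840 and 0.0659). Gata1 did not enter the fit, with 6, 5, 6 and 6 reads in the libraries labelled null and 0, 7, 5 and 5 in wild type, and it is also a gene of Sertoli cells. Hemgn, a nuclear protein gene of blood cells, had 12, 8, 9 and 8 reads against 0 in every wild-type library, at least 2.48-fold, and was singled out after its values were seen.

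In the list of the erythropoietin receptor, enzymes and maturation genes, 2 of 5 tested genes were higher and 1 lower (median log2 fold change 0.01). Of the 2 higher, Car2 passed the filter only through the libraries labelled null, so its call supports nothing. Under the stromal scaling 1 was higher and 4 lower, and under germ cell scaling 5 were higher and 0 lower. The carbonic anhydrase gene Car2 was at 2.12 ± 0.410 CPM against 0.212 ± 0.263 in wild type, a log2 fold change of 3.12, or 4.11 without wild-type replicate 4. Xpo7, an exportin active in nuclear condensation of erythroblasts, was higher by 0.36, but -0.23 under the stromal scaling. Bnip3l, which drives removal of mitochondria from reticulocytes, was lower (-0.27), but higher by 0.66 under germ cell scaling and by 0.0763 with library totals. The erythropoietin receptor gene Epor was not tested, at 0.742 ± 0.552 CPM in the libraries labelled null and 0.266 ± 0.0801 in wild type. The list of other globins had 0 tested genes.

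**Figure D3:**
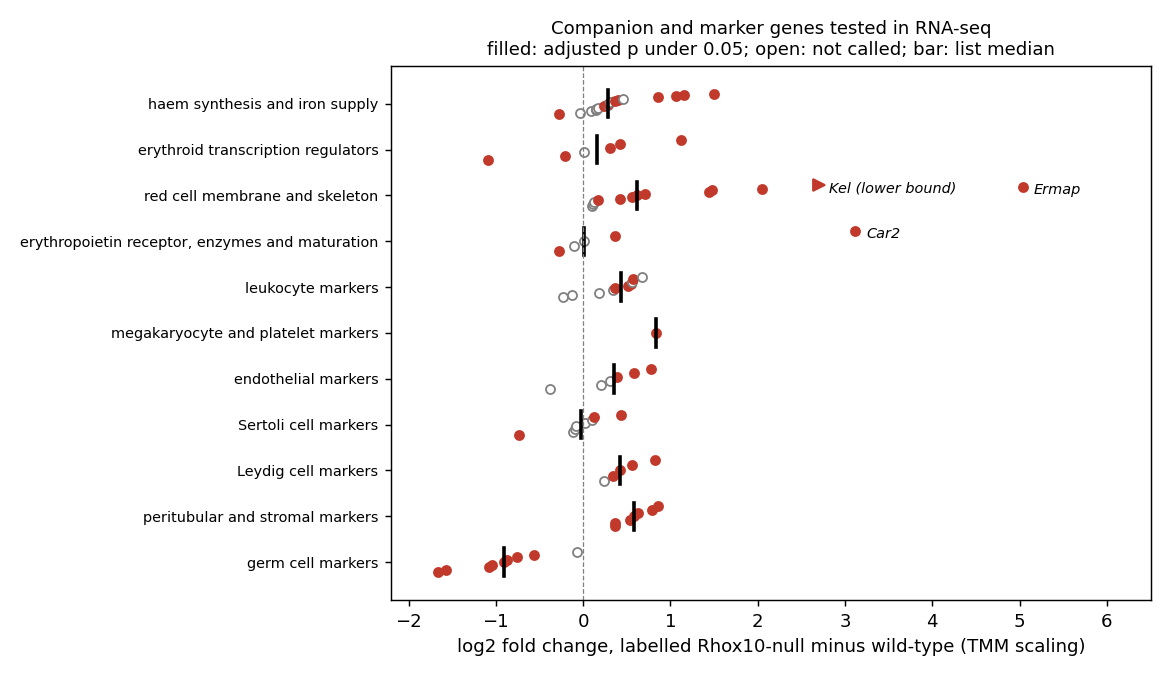
Log2 fold changes of the tested genes of each list, libraries labelled Rhox10-null minus wild-type (horizontal axis, TMM scaling, each point a gene, filled where the adjusted p was under 0.05, bars list medians, Kel as a lower bound). Ermap, Car2 and Kel stand far to the right of their lists, stromal markers lie above 0 and 8 of 9 germ cell markers are filled and below 0.

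These cells were labelled as purified germ cells, and the markers of other cells that moved with the genotype are given here. The RNA-seq libraries held 6602089 to 8278887 reads, of which the single gene Gm42418 took 58.0% to 59.4% in wild type and 51.0% to 52.7% in those labelled null. Rhox10 itself had 3 to 10 reads in wild type and 4 to 11 in the libraries labelled null, so its level does not check the label. Summed germ cell markers were 243 to 254 CPM in wild type and 121 to 130 in the libraries labelled null, with 8 of 9 tested markers lower. Fewer germ cells and less of this RNA per cell cannot be told apart in bulk samples, and the same holds for red cell RNA. Sertoli markers summed to 574 to 626 and 637 to 658 CPM, so both genotypes held transcripts of cells other than germ cells. Of the 8 tested, 2 were higher and 1 lower. Amh was at 187 CPM in the libraries labelled null against 139 in wild type, and the lower Cldn11 at 3.78 against 6.15. Peritubular and stromal markers (441 to 466 against 701 to 741 CPM, 7 of 7 tested higher) and Leydig markers (34.2 to 36.0 against 46.3 to 56.1, 4 of 5 higher) were raised. Beside these counts of markers, 18.6% of all tested genes were called higher and 18.9% lower. Leukocyte markers were 35.5 to 40.0 against 45.0 to 54.7 CPM, a ratio of 1.31 with 4 of 10 higher and Elane at 0 in both genotypes. Endothelial markers were 29.3 to 35.0 against 41.4 to 46.3 CPM, a ratio of 1.32 with 3 of 6 higher. Megakaryocyte and platelet markers were 1.09 to 3.05 against 2.15 to 3.18 CPM, with 1 of 1 tested higher, and Ppbp, Gp9, Gp1bb and Gp1ba at 0 in wild type and Gp1ba and Treml1 at 0 in the libraries labelled null. The tested one, Itga2b, had 7, 5, 10 and 7 reads in wild type and 15, 19, 17 and 13 in the libraries labelled null. It passed the filter only through the libraries labelled null, so its call supports nothing. The part of these shifts in the difference of the red cell genes was not tested. Under scaling to stromal markers, the log2 fold change was 4.01 for Hba-a1 and 0.80 for Ank1. The members were chosen for this difference and a scaling moves all genes together, so these values are descriptions.

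In cultured GS cells, most members were near the limit of detection with both vectors. Libraries held 9419615 to 12645845 reads, counted at transcript ends. The beta globin gene Hbb-bt had 0 reads in all 24 libraries, and Hbb-bs had 2 reads in 1 empty-vector library. Hba-a2 had 1 read over the 12 empty-vector libraries and 2 over the 12 Rhox10-ERT2 libraries, and Slc4a1 had 1 and 7. Epb42 had 19 and 8 reads, at most 7 in a library, and Klf1 had 58 and 40, at most 14. Hba-a1, Alas2 and Ank1 passed the filter on low counts and were fitted with all 20642 tested genes.

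Hba-a1 had 1 to 11 reads (median 3) in the empty-vector libraries and 0 to 14 (median 7) in the Rhox10-ERT2 libraries. The vectors overlapped, and at 0 h both empty-vector libraries, with 8 and 11 reads, were above the Rhox10-ERT2 libraries, with 3 and 0. Averaged over 0.5 to 8 h, the log2 difference of Rhox10-ERT2 minus empty vector was 1.18 (SE 0.469, edgeR adjusted p = 0.0530), which did not pass the test. Over the alternatives tried, the adjusted p ran from 0.0400 to 0.289, and it passed with DESeq2 (0.0464) and without Ctrl 0.5 h replicate 1 (0.0458) or Rhox10 2 h replicate 1 (0.0400). The last 100 bases of the Hba-a2 transcript, near where this assay counts, are 84% identical to Hba-a1.

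Alas2 was the member called lower with Rhox10-ERT2. It had 0 to 14 reads in the empty-vector libraries (median 5.5, 75 in all, 11 of 12 libraries with a read) and 0 to 3 in the Rhox10-ERT2 libraries (median 1, 13 in all, 7 of 12 libraries). By reads, 9 of 12 empty-vector libraries were above every Rhox10-ERT2 library, and at 0.5 h the vectors did not separate, with 0 and 3 reads against 2 and 3. Over 0.5 to 8 h the mean was 0.506 ± 0.365 CPM with the empty vector and 0.114 ± 0.0995 with Rhox10-ERT2 (SD, n = 10 each), 4.42-fold lower. The averaged contrast passed the test (edgeR adjusted p = 0.0102, with 18.4% of tested genes called lower), and its fitted log2 value of -2.35 depends on the prior count, since both Rhox10-ERT2 libraries of 4 h were at 0. The gene passed the filter only through its empty-vector libraries, where it is high. Its calls in this assay, the one at 0 h included, therefore support nothing. The call rested on single libraries. It was lost without Ctrl 4 h replicate 1 (adjusted p = 0.0783) and without Ctrl 0.5 h replicate 2 (1.00), which left an empty-vector group with 0 reads. Over all alternatives the adjusted p ran from 0.00201 to 1.00. At 0 h, before 4-hydroxytamoxifen, the empty-vector libraries had 13 and 8 reads and the Rhox10-ERT2 libraries 0 and 0, at least 3.24-fold lower (edgeR adjusted p = 0.0371, with 4.32% of tested genes called lower at 0 h). The difference did not change detectably from 0 h (adjusted p = 0.545, with 2.39% of tested genes called).

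Ank1 was the one member at a firm level in GS cells. It had 124 to 329 reads (median 192.5) in the empty-vector libraries and 61 to 200 (median 118) in the Rhox10-ERT2 libraries, or 12.5 to 31.3 and 5.54 to 19.4 CPM. Within each of the 6 times except 2 h, both Rhox10-ERT2 libraries were below both empty-vector libraries. The averaged log2 difference over 0.5 to 8 h was -0.59. At 0 h the libraries had 147 and 197 reads with the empty vector and 61 and 105 with Rhox10-ERT2. This is a log2 difference of -0.93 (SE 0.290, edgeR adjusted p = 0.0412, with 4.32% of tested genes called lower at 0 h). These libraries are outside the averaged contrast that chose Ank1 but come from the same lines. The 0 h p-value is therefore not independent of that choice. At 0.5, 1, 2, 4 and 8 h the log2 differences were -0.65, -0.91, -0.43, -0.25 and -0.73. Reads of Ank1 were thus lower with Rhox10-ERT2 in the 0 h libraries, before induction. The change from 0 h did not pass the test (edgeR adjusted p = 0.823), nor did that of Hba-a1 (0.390). With 2 libraries per vector and time, and Ank1 chosen on the later times, this test cannot show when the difference arose. With both vectors the 8 h libraries were above the 0 h libraries.

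**Figure D4:**
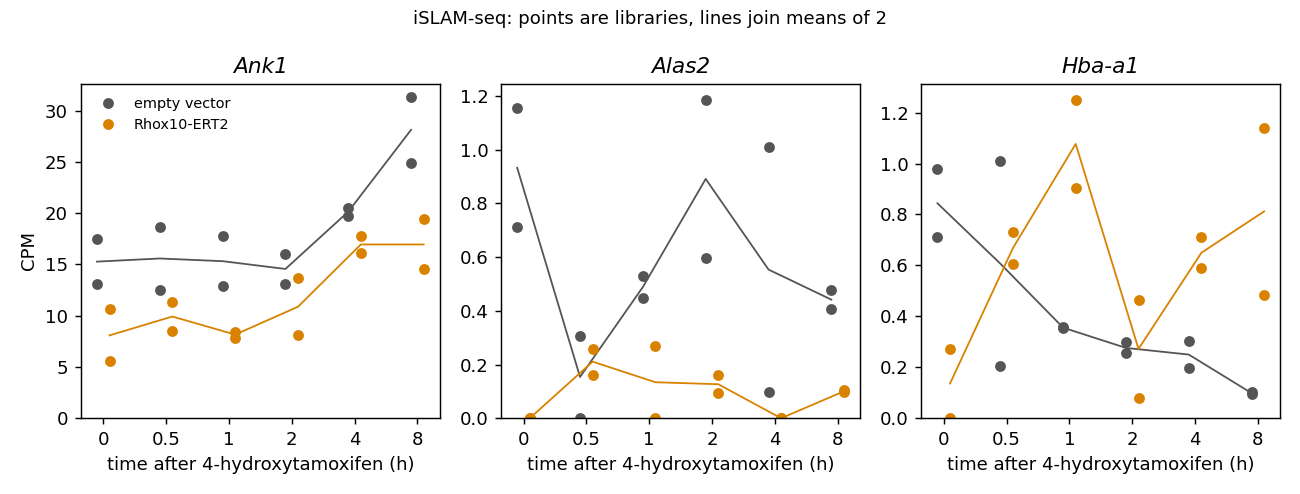
CPM of Ank1, Alas2 and Hba-a1 (vertical axes, each from 0) against hours after 4-hydroxytamoxifen (horizontal axis, 6 times evenly spaced) in iSLAM-seq. Points are libraries, 2 per vector and time, and lines join their means. Ank1 is lower with Rhox10-ERT2 at every time in the means, Alas2 is near 0 with Rhox10-ERT2 from the start, and Hba-a1 stays under 1.3 CPM throughout.

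Of the 67 other red cell genes, 48 were tested in iSLAM-seq, and 19 were higher with Rhox10-ERT2, 7 lower and 22 not called in the averaged contrast. Among all tested genes 37.1% were called, 18.7% higher and 18.4% lower. The median log2 difference was 0.16 over the list genes and 0.001 over all tested genes. Of the membrane genes 6 of 13 tested were higher and 2 lower, and of the haem and iron genes 6 of 17 higher and 4 lower. Of the regulators 3 of 12 were higher and 0 lower, and of the receptor, enzyme and maturation genes 4 of 6 higher and 1 lower. The membrane genes Stom (0.99), Cd47 (0.95) and Mpp1 (0.89) and the mitoferrin gene Slc25a37 (0.67, edgeR adjusted p = 1.00e-10) were higher by these log2 values. The lower membrane genes are not named here. Tfrc was lower at -0.16 (edgeR adjusted p = 0.00462), Epor was higher at 1.15 (0.0326) and Car2 at 2.09 (0.00542), the last at 1.43 ± 0.914 against 0.385 ± 0.556 CPM. Whether list genes passed the filter of this assay only through the libraries where they are high was not examined. No support is therefore drawn from the calls of Epor and Car2. Gata1 was not called (0.21, edgeR adjusted p = 0.610). Leukocyte markers moved with the vector, at 53.7 to 71.6 CPM summed over the list with the empty vector and 147 to 200 with Rhox10-ERT2 (3 of 9 tested higher and 1 lower). Of the peritubular and stromal markers 4 of 7 tested were higher and 1 lower, of the Sertoli markers 3 of 6 higher and 1 lower, of the megakaryocyte and platelet markers 1 of 5 higher and 0 lower, and of the endothelial markers 0 of 7 higher and 3 lower. The part of these shifts in the differences of the red cell genes was not tested. Germ cell markers summed to 1672 to 2423 and 1764 to 2071 CPM, and 7 of 10 were lower.

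RHOX10 peaks of CUT&Tag were counted around each member. The table that the authors deposited lists 5147 peaks merged over the 3 RHOX10 libraries, each with a score of the authors. The 4 globin genes had 0 peaks within 100 kb of any annotated start. Slc4a1, Alas2 and Klf1 each had 1 peak within 100 kb and Epb42 had 2, annotated to other genes (Grn, Tmem29, Farsa, Ccndbp1 and Tmem62) and 13616 to 88286 bases away. Within 10 kb, Ank1 alone had a peak. A peak within 3 kb of the start was annotated to 1 of the 9 members, and to 7.67% of all genes in the count table and 19.8% of those tested in iSLAM-seq, so this count is no result about the members.

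That peak lies at chr8:22975182-22975742 (561 bases) in intron 1 of 42 of an Ank1 transcript, with its middle 326 bases from the nearest annotated Ank1 start. The authors give it a score of 60.3, rank 4047 of 5147, where the median peak scores 128. The middle 200 bases of the peak (chr8:22975362-22975561, plus strand, RefSeq GRCm38.p6) are shown because this is the one listed peak that is annotated to a member. No capitals are set, since none of the searched words (TAATTA and TAAT, the GATA words or CCNCNCCC, on either strand) was found in it.
Ank1 peak: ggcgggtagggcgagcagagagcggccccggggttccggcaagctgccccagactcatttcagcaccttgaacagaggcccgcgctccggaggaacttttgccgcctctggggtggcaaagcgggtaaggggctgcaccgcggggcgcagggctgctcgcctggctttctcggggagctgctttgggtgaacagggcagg

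This stretch is 68.5% G and C with 15 CG pairs, where the middles of all peaks have medians of 66.5% and 17. Of the 5143 peak middles read, 0.564% held TAATTA, 18.4% TAAT, 7.35% a GATA word and 62.1% CCNCNCCC. Ank1 is the member with a peak, a 2.63-fold higher level in the libraries labelled null and a lower level in Rhox10-ERT2 cells, the last already at 0 h. Both differences in level belong to the choice of Ank1, and a link between them and the peak was not tested. Among the other red cell genes, a peak within 3 kb of the start was annotated to 4 of 17 haem and iron genes (Abcb10, Alad, Cpox and Fech), 2 of 14 regulators (Ldb1 and Zfpm1), 2 of 19 membrane genes (Cd47 and Xk), 3 of 10 receptor, enzyme and maturation genes (Bnip3l, Epor and Xpo7) and 0 other globins. These are 11 of 67 genes (16.4%), and 11 of the 48 tested in iSLAM-seq (22.9%), a share near the 19.8% of all genes tested there. Signals of the IgG and empty-vector libraries were not analysed here, so peak heights have no background value beside them.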

How the data were processed

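The 41 samples comprised 8 RNA-seq, 24 iSLAM-seq and 9 CUT&Tag libraries. Both gene tables hold raw read counts per gene as deposited by the authors, per the file headers. The submitters' processing notes name STAR 2.5.2b, Subread featureCounts, limma 3.42.2, Bowtie2 2.2.5, SAMtools and HOMER. The strand setting and the handling of reads that match several genes are not given in the sources used here, nor whether the iSLAM-seq counts are of all reads or of converted reads. The peak score is the authors' own deposited value, per the file headers. Gene symbols came from GENCODE M21, and 55450 of 55536 identifiers had one.

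Counts were fitted with edgeR 4.0.16 (limma 3.58.1, R 4.3.3): TMM scaling, the filterByExpr filter (minimum count 10), the quasi-likelihood test and Benjamini-Hochberg adjustment over all tested genes, with calls at an adjusted p under 0.05. RNA-seq was fitted by genotype, and iSLAM-seq with 12 group means. Standard errors come from each log2 fold change and its F statistic, as the size of the first over the root of the second. CPM used TMM-scaled library sizes. A gene at 0 in every library of a group was compared with a floor of 3 counts per library. Where nothing says that replicates came from separate cultures, p-values measure only the spread between these samples. The fits were tested on simulated counts.

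The members and gene lists were chosen with earlier results of these data known. Named were all members, up to 4 called genes per list and direction by size, Gata1, Ahsp, Tfrc, Epor, Hba-x, Hbb-bh1, Hbb-y and the 10 genes most like the members. A few other list genes were named after their values were seen, and some genes that the rule selects are not reported here. Alternatives were DESeq2 1.42.0, other scalings, no filter, a replicate block and leaving out each library, except the iSLAM-seq libraries of 0 h. Scaling to Sertoli, stromal or germ cell markers was added after seeing the data. Every numeric sample column was used, with 0 left over.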

Additional observations from a re-analysis of the deposited data

Results flagged for a closer look

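In 60 groups of 4 RNA-seq libraries examined for the members and the other genes named by rule, a single library stood apart in 3, and chance gives about 1 in 20, or 3. None was a member. For Tfrc in wild type, replicate 1 was at 29.5 CPM, where the others were at 21.9 to 22.9 (gap over range 0.870). For Alad in wild type, replicate 2 was at 21.3 CPM, where the others were at 24.2 to 24.6 (0.888). For Bnip3l in the libraries labelled null, replicate 3 was at 22.9 CPM, where the others were at 21.4 to 21.6 (0.877).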

How the results depend on the processing

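The log2 fold changes of the 7 fitted members stayed above 0 under every alternative tried. This describes the choice, since the members were listed for this difference. The smallest of the 7 values (Ank1, 1.39) is also larger in size than the stromal shift of all genes (-0.59). The 5071 RNA-seq calls became 7858 with library totals (7229 higher, 629 lower), 2980 with DESeq2, 4739 with Sertoli scaling (2739 higher, 2000 lower), 10099 with stromal scaling (194 higher, 9905 lower) and 12468 with germ cell scaling (12407 higher, 61 lower), where the main fit had 2518 higher and 2553 lower. The median over all genes moved, on the log2 scale, to 0.35 with library totals, -0.59 with stromal and 0.93 with germ cell scaling (DESeq2 -0.0006, Sertoli 0.0433). The signs of Alad, Ldb1 and Bnip3l reversed with library totals (0.0750, 0.14 and 0.0763) and germ cell scaling (0.66, 0.72 and 0.66), and those of Tfrc (-0.30), Sox6 (-0.17), Klf3 (-0.28) and Xpo7 (-0.23) with stromal scaling. A change of scaling moves all genes together, and each reversed value is smaller in size than the median over all genes under the same scaling. The 494 iSLAM-seq genes changing from 0 h became 1002 without the filter and 835 with DESeq2, and the cause was not tested. The 1 member called in the iSLAM-seq average became 2 with DESeq2 and 0 to 2 when each library of 0.5 to 8 h was left out. Same-numbered libraries did not deviate together (correlations -0.019 to 0.014 in RNA-seq, -0.015 to 0.035 at the same time in iSLAM-seq), and with a replicate block the RNA-seq calls numbered 5066, the iSLAM-seq calls 7687 and those changing from 0 h 502, with the other red cell genes called at 27 and 27. The block changed no call of a member. The prior count was raised from 0.125 to 0.5.

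Depth limits Klf1 and Epb42, which at no more than 15 reads per library give folds known only within wide counting intervals. In iSLAM-seq 5 members had under 20 reads over each vector.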
